A study of Mus musculus with 12 samples.

Results

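Glycolysis is the chain of cytosolic reactions that splits glucose into pyruvate and yields ATP and NADH, with lactate dehydrogenase turning pyruvate into lactate. The pathway is described by 10 of its enzyme genes here: Hk2, Gpi1, Pfkl, Pfkp, Aldoa, Pgk1, Eno1, Eno1b, Pkm and Ldha. They were found by gene symbol in the deposited table of 22462 genes, and all 10 passed the filter on low values that left 11750 genes for testing. Several steps are served by isozymes, that is, enzymes from different genes that catalyse the same reaction and differ in regulation. Hexokinase and phosphofructokinase are classic control points of flux, and pluripotent stem cells are known for a high rate of glycolysis.

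The data are ribosome profiles of mouse ESCs (embryonic stem cells, a V6.5 background per the study's methods) and of the EpiLCs, or epiblast-like cells, derived from them. ESCs were grown with serum and held in the naive state with LIF and 2i, a pair of inhibitors (PD0325901 and CHIR99021), and EpiLCs were obtained from them by taking LIF and 2i away for about 56 hours. Each cell type gave 3 libraries of ribosome protected footprints (RPFs), which report ribosomes on coding sequence, and 3 of total RNA, which report mRNA. The labels name no genetic change in any of the 4 groups, but the study's methods list, for its differentiation experiments, a V6.5 line with miR-290-mCherry and miR-302-GFP reporters, so all groups may carry both reporters. EpiLCs were defined by time after withdrawal and not by sorting. The study's text speaks of biological replicates, but no label says whether numbered replicates came from separate cultures, so p-values measure the spread between these libraries only. The comparison asks whether mRNA, RPF or their ratio, translational efficiency (TE), differed between the cell types.

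The libraries held 2681439 to 14655015 counts each, and 3 counts, the detection floor used here, equal 0.205 to 1.12 CPM, that is, counts scaled to a library of 1000000. Levels of genes are CPM after TMM scaling, which adjusts library totals for composition. Libraries of 1 group differed by more than sampling noise, with a chi-square of 2.46 to 7.19 per degree of freedom in 12 pairs. Naive markers fell in EpiLCs (6 of 6 called for mRNA) and primed markers rose (5 of 5). All 3 shared pluripotency markers fell too, with mRNA log2 changes of -2.72 for Sox2, -1.58 for Nanog and -0.65 for Pou5f1. Markers of fibroblast feeders summed to 1.94 to 2.23 CPM in ESC total RNA and 8.82 to 11.82 CPM in EpiLC total RNA, with Postn and Lum at 3 counts or fewer in every library. The 2 feeder markers tested, Col1a1 and Thy1, were called higher in EpiLCs (log2 2.11 and 1.81 for mRNA, 1.99 and 2.29 for RPFs). Neural markers summed to 9.69 to 14.9 and 20.7 to 24.0 CPM, primitive endoderm markers to 3.94 to 4.96 and 4.81 to 5.73 CPM, mesoderm markers to 0.171 to 1.01 and 1.60 to 3.74 CPM, and trophoblast markers to 43.1 to 52.1 and 3.69 to 8.41 CPM, in the same order. Of the trophoblast markers, Cdx2 and Elf5 had 3 counts or fewer in every library, and Tfap2c was the only one called (log2 -3.24 for mRNA). Of the neural markers, Pax6 and Neurod1 were called higher (log2 4.77 and 1.92 for mRNA, 4.39 and 2.24 for RPFs). The part of such cells in the results was not tested. In bulk samples, a change in every cell and a change in the make-up of the culture cannot be told apart.

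The largest change among the 10 glycolysis enzymes was part of an exchange of phosphofructokinase isozymes. Pfkp was 9.74-fold lower in EpiLCs at the mRNA level and 11.6-fold lower in RPFs, while Pfkl rose 1.75-fold and 1.88-fold. Hk2 fell 1.64-fold in mRNA and Hk1, the other abundant hexokinase gene, fell 3.70-fold. In mRNA, Eno1 was the other riser (1.26-fold), and Gpi1 and Aldoa were 1.15-fold lower. Pkm, Ldha, Pgk1 and Eno1b did not pass the test for mRNA, while in RPFs Eno1b rose 2.11-fold and Pkm and Eno1 rose 1.31-fold and 1.30-fold.

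A rise or fall is written here only for an adjusted p below 0.05 (voom and limma, Benjamini-Hochberg over 11750 genes), and "called" means that the log2 fold change was also above 1 or below -1. For mRNA, 0 of the 10 enzymes were called higher and 1 lower, against 14.6% and 9.7% of all tested genes. Without the fold limit 2 were higher and 4 lower, against 34.6% and 30.7%. For RPFs, 1 was called higher and 1 lower, against 15.4% and 10.6%, and 4 were higher and 2 lower without the limit, against 31.1% and 28.7%. For TE, 1 was called higher and 0 lower, against 0.136% and 0.119%, with 2 higher and 0 lower without the limit, against 0.57% and 0.63%. The median log2 change over the 10 enzymes was -0.11 for mRNA, 0.23 for RPFs and 0.24 for TE, while over all tested genes it was 0.03, 0.01 and 0.01. Without Pgk1, Eno1 and Eno1b, a choice made after the data were seen, the median was -0.21, 0.07 and 0.18. With a GC correction the median TE change was 0.16 over the 10 enzymes and -0.02 over all tested genes.

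**Figure D1:**
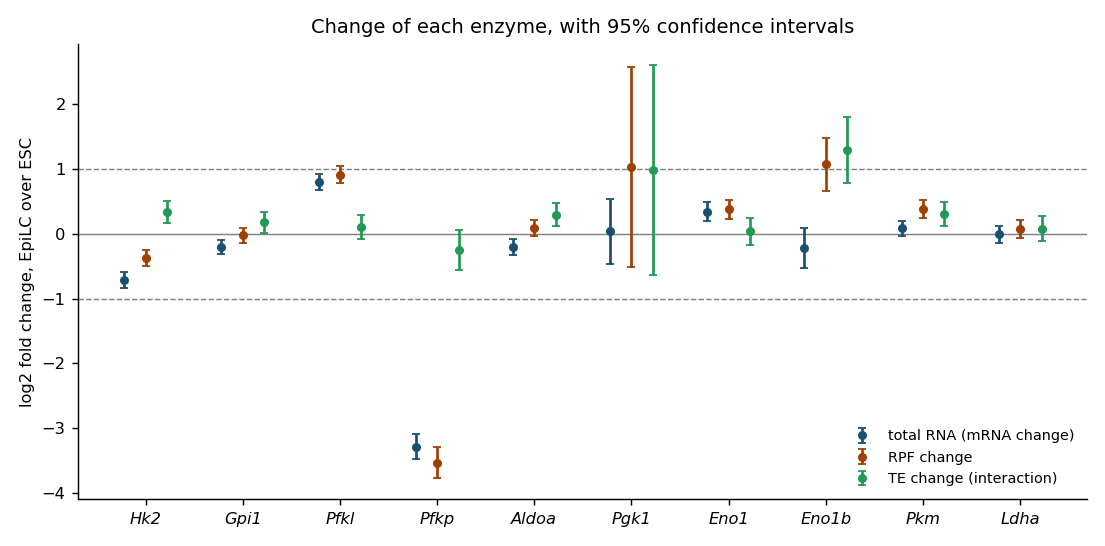
Log2 fold change (EpiLC over ESC) of each enzyme in pathway order for total RNA (blue), RPFs (brown) and TE (green). Points are fitted changes, bars are 95% confidence intervals, and dashed lines mark the fold limit of 1. Pfkp lies far below the others at -3.28 for mRNA and -3.53 for RPFs, and the intervals of Pgk1 are the widest.

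Copies of an enzyme's sequence limit where its reads could be counted. The authors kept only reads with a single mapping position, and many glycolysis genes have processed pseudogenes that repeat their coding sequence. Each counted start was therefore checked for whether the 28 bases that follow it (a typical RPF), or the 50 bases (a full total RNA read), occur, without mismatch, in a transcript of any other gene. Every start of Hk2, Pfkl and Pfkp was unique at both lengths. The share of unique starts at 28 and 50 bases was 51.9% and 83.3% for Aldoa, 42.3% and 62.0% for Gpi1, 36.9% and 71.8% for Ldha, and 17.5% and 48.5% for Pkm. It was lowest for Eno1 (9.60% and 16.9%), Pgk1 (2.07% and 3.89%) and Eno1b (2.06% and 6.75%). Levels per length therefore count only part of the reads of these genes, and a smaller part in RPFs than in total RNA. The share of unique starts is a property of the sequence and is the same number for both cell types.

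Pgk1, phosphoglycerate kinase and the enzyme that makes the first ATP of the pathway, had the fewest counts of the 10. Its counted exons span chrX:106187296-106203279 (mm10, plus strand), and 25 of its 1209 counted starts were unique at 28 bases. All 25 form a single run that ends at the last counted base, so they lie at the end of the coding sequence. Pgk1-rs7 was the gene that shared most of the other starts. Eno1b had about the same share of unique starts and 54 to 191 RPF counts per library. How far copies, or the place of the unique starts, account for the low counts of Pgk1 was not tested.

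**Figure D2:**
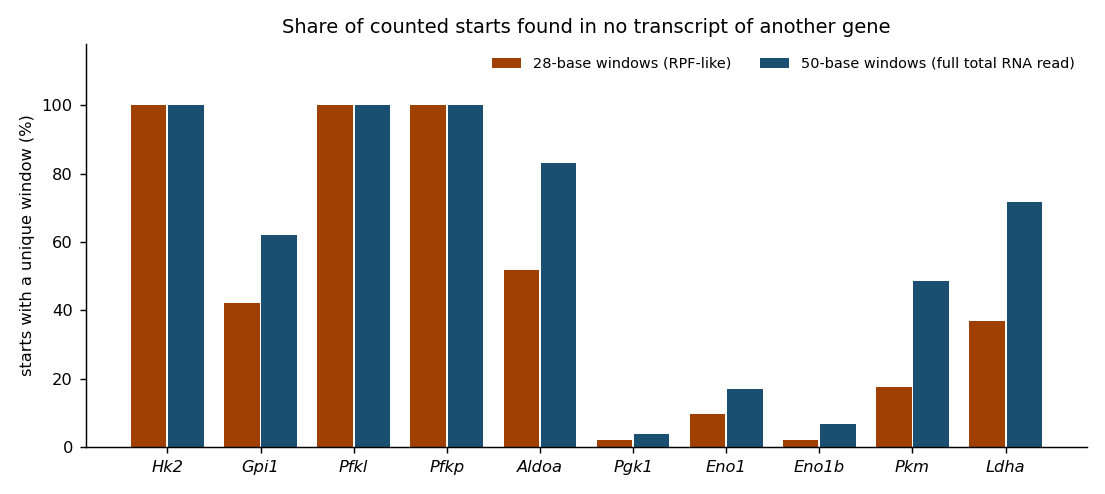
Share of counted starts (%) whose following 28 bases (brown) or 50 bases (blue) occur in no transcript of another gene, for each enzyme. Hk2, Pfkl and Pfkp stand at 100% for both lengths, while Pgk1 and Eno1b stand at 2.07% and 2.06% for 28 bases.

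Hexokinase phosphorylates glucose and traps it in the cell. Hk2, the hexokinase of insulin-responsive and many proliferating tissues, spans chr6:82727310-82773935 (minus strand) in its counted exons. Its total RNA level was 472, 489 and 511 CPM in ESC replicates 1 to 3 and 318, 281 and 295 CPM in the EpiLC replicates. The RPF level was 828, 852 and 920.5 CPM in ESCs and 662, 697 and 664 CPM in EpiLCs. In both assays every ESC library was above every EpiLC library. The log2 change was -0.71 ± 0.06 (SE, n = 3) for mRNA with an adjusted p of 1.02e-10, and -0.37 ± 0.06 for RPFs with an adjusted p of 6.52e-06 (limma).

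The smaller fall in RPFs gave Hk2 a TE rise of 0.34 ± 0.08 on the log2 scale (95% confidence interval 0.17 to 0.51, adjusted p of 0.0397 by limma), or 1.27-fold. Its TE was already high in ESCs, with 1.76 RPF CPM per total RNA CPM, above 89.0% of tested genes. It was 2.26 in EpiLCs, above 94.2%. The rise had the same sign in all alternatives, but its adjusted p ran from 0.0130 to 0.115. It missed the threshold without any single library except ESC total RNA replicate 1, EpiLC total RNA replicate 1 and ESC RPF replicate 3, for whose omission it was 0.0425, 0.0275 and 0.0135.

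Hk1, the hexokinase found in most tissues, was called lower in both assays (log2 -1.89 ± 0.08 for mRNA and -1.61 ± 0.09 for RPFs, adjusted p of 3.93e-16 and 4.61e-14 by limma). Its mean total RNA level went from 213 ± 15.2 CPM (SD, n = 3) to 57.3 ± 4.23 CPM. The ratio of Hk2 to Hk1 per length was 2.17, 2.60 and 2.48 in ESC total RNA and 5.81, 5.50 and 4.98 in EpiLC total RNA. In RPFs it was 2.93, 2.92 and 2.88 against 6.72, 7.61 and 6.59. The groups did not overlap in either assay, with an exact permutation p of 0.1 each, the smallest that 3 against 3 can give (2-sided, 0.16 adjusted over 8 ratio comparisons).

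Gpi1, glucose-6-phosphate isomerase, carries out the next step. Its total RNA level was 396, 389.8 and 392 CPM in ESCs and 351, 332 and 335 CPM in EpiLCs, so the groups did not overlap. The mRNA fell by 0.21 ± 0.05 on the log2 scale (adjusted p of 0.00156, limma). In RPFs the values were 441, 428 and 480.0 CPM against 445, 435 and 448 CPM, with a log2 difference of -0.03 (95% confidence interval -0.15 to 0.09). The TE difference was 0.18 (0.02 to 0.34), with an adjusted p of 0.305 by limma.

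Phosphofructokinase commits fructose 6-phosphate to glycolysis. It works as a tetramer of subunits from Pfkl (liver type), Pfkm (muscle type) and Pfkp (platelet type), and the subunits respond differently to activators and inhibitors. Pfkp spans chr13:6581460-6648634 and Pfkl chr10:77988210-78009638, both on the minus strand. For Pfkp the counts in total RNA were 8140, 6026 and 6431 in ESCs and 898, 291 and 528 in EpiLCs, or 593, 508 and 551 CPM against 59.96, 46.6 and 60.5 CPM. In RPFs it had 619, 603 and 663 CPM in ESCs and 63.9, 49.4 and 49.5 CPM in EpiLCs. The lowest ESC library was thus far above the highest EpiLC library in each assay. The log2 change was -3.28 ± 0.09 for mRNA and -3.53 ± 0.12 for RPFs, with adjusted p of 2.55e-19 and 8.01e-18 (limma). TE differed by -0.25 (95% confidence interval -0.55 to 0.06, adjusted p of 0.484).

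Pfkl went the other way. It had 366, 379.8 and 376 CPM in ESC total RNA and 665, 587 and 702 CPM in EpiLC total RNA, and its RPFs went from 451, 386 and 426 CPM to 782, 800.1 and 807 CPM. All EpiLC libraries were above all ESC libraries. The log2 change was 0.81 ± 0.06 for mRNA and 0.91 ± 0.07 for RPFs (adjusted p of 1.28e-11 and 1.21e-11, limma), just under the fold limit, and TE differed by 0.11 (-0.07 to 0.29). Pfkm rose as well, by 0.86 ± 0.08 in mRNA and 1.25 ± 0.08 in RPFs, the latter past the fold limit (adjusted p of 3.13e-10 and 2.14e-12, limma).

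The ratio of Pfkp to Pfkl per length was 1.51, 1.25 and 1.37 in ESC total RNA, so that Pfkp was the more abundant of the pair in every library. In EpiLC total RNA, Pfkl exceeded Pfkp 11.9-, 13.46- and 12.4-fold. RPFs gave 1.28, 1.46 and 1.45 in ESCs, and in EpiLCs Pfkl exceeded Pfkp 13.1-, 17.3- and 17.4-fold. The ratio changed 17.3-fold between cell types in total RNA and 22.03-fold in RPFs, with no overlap and an exact permutation p of 0.1 in each assay (2-sided, 0.16 adjusted over 8 comparisons).

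The sum over Pfkl, Pfkm and Pfkp moved far less than its parts. It was 412 ± 12.9 CPM per kb (SD, n = 3) in ESC total RNA and 353 ± 29.3 in EpiLC total RNA, a ratio of 0.856. In RPFs it was 470.2 ± 23.2 and 446 ± 5.46 CPM per kb, a ratio of 0.948. The total RNA sums did not overlap (399 to 425 against 321 to 379 CPM per kb), whereas the RPF sums did (444 to 486 against 439.8 to 451 CPM per kb). Within the sum, Pfkp went from 54.2% to 6.39% of total RNA, Pfkl from 39.5% to 80.3% and Pfkm from 6.25% to 13.3%. The RPF shares were 54.3% to 4.95% for Pfkp, 38.9% to 77.8% for Pfkl and 6.79% to 17.3% for Pfkm.

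**Figure D3:**
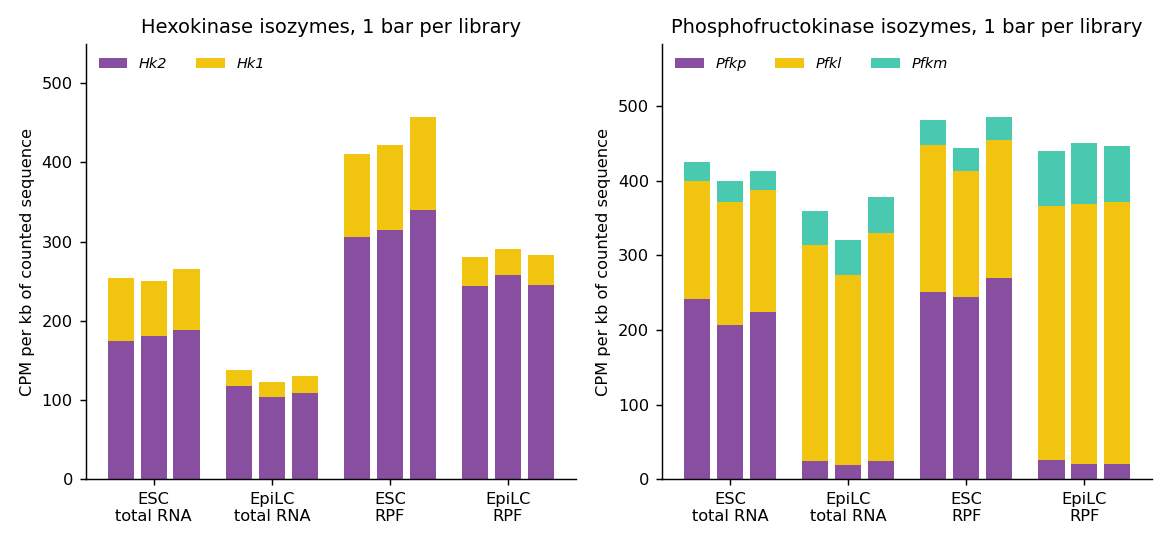
CPM per kb of counted sequence of Hk2 and Hk1 (left) and of Pfkp, Pfkl and Pfkm (right), stacked by gene with 1 bar per library. The Pfkp part nearly disappears in the 6 EpiLC bars while the height of the phosphofructokinase bars stays between 321 and 486 CPM per kb, and the hexokinase bars are lower in EpiLCs.

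The promoters of this pair are shown because the genes serve the same step and moved in opposite directions. The 250 bases before the most upstream listed RefSeq start site of each gene (GRCm38.p6) are given, with GCGTG or its complement in capitals. This motif and ACGTG are the core letters bound by basic helix-loop-helix factors of the hypoxia-inducible factor family. On either strand GCGTG was in 28.3% and ACGTG in 16.5% of 27025 promoters of this length, taken in the same way. Pfkp (chr13:6648772-6649021, minus strand) held 0 ACGTG and 3 GCGTG, the last of the GCGTG sharing a base with a GGGCGG, and Pfkl (chr10:78009808-78010057, minus strand) held 1 GCGTG and 0 ACGTG.
Pfkp: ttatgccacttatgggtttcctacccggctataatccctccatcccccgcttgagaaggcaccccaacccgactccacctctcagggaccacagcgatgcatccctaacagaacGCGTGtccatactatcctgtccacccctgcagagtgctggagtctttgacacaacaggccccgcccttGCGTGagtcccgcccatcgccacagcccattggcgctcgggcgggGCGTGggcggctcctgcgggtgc
Pfkl: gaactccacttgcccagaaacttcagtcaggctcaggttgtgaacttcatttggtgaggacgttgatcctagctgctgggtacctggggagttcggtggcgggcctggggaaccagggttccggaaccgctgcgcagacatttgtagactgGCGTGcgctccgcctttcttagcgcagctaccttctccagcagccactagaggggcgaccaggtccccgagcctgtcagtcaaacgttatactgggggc

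Across the other enzymes with a promoter in the table, ACGTG occurred 5 times in Ldha, 2 times in Hk2 and 2 times in Pgk1, and not in Gpi1, Aldoa, Eno1 or Pkm. Both strands were searched, so a CACGTG, which reads the same on both, counts as 2 matches of ACGTG. The Aldoa window (chr7:126800448-126800697, minus strand) lies within the span of its counted exons (chr7:126795419-126808197). Any Aldoa start further upstream was therefore not scanned. The palindrome CACGTG, present in 6.04% of promoters, occurred 2 times in Ldha, within the 5 matches above, and in no other of these enzymes. These are matches of letters only, and no binding was measured.

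Aldoa, the main aldolase, splits the 6-carbon sugar and was among the most abundant of the enzymes. Its total RNA level was 1265, 1276 and 1233 CPM in ESCs and 1120.0, 1031 and 1109 CPM in EpiLCs, with no overlap. The mRNA fell by 0.21 ± 0.06 on the log2 scale (adjusted p of 0.00386, limma). The RPF values overlapped, at 1645, 1791 and 1985 CPM in ESCs and 1761, 1961 and 2073 CPM in EpiLCs, with a log2 difference of 0.09 (95% confidence interval -0.04 to 0.22). TE differed by 0.30 (0.12 to 0.47) with an adjusted p of 0.0856 (limma), which ran from 0.00998 to 0.248 when single libraries were left out and was 0.0455 with a replicate block. Without ESC RPF replicate 3 both the TE and the RPF difference passed the test (adjusted p of 0.00998 and 0.0479, limma), and without EpiLC RPF replicate 1 the TE difference did (0.0429).

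Pgk1 gave 40 to 59 counts per ESC total RNA library and 34 to 56 per EpiLC library, but only 3, 1 and 3 RPF counts in ESCs and 2, 1 and 6 in EpiLCs. The total RNA level was 4.30, 4.89 and 3.43 CPM against 3.74, 6.73 and 3.90 CPM, and these overlapped (log2 difference 0.04, 95% confidence interval -0.47 to 0.54). Pooled over libraries, 9 RPF counts in EpiLCs against 7 in ESCs are a 2.40-fold ratio after scaling to depth, with an exact interval of 0.797 to 7.60, which covers counting error only. A difference in RPFs was not detectable with so few counts. Gapdh and Pgam1, picked after their values were seen because they act just before and after this step, were also almost uncounted, with 1.45% and 3.75% unique 28-base starts and at most 24 and 19 counts in any library.

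Enolase converts 2-phosphoglycerate to phosphoenolpyruvate. Eno1 is the widely expressed gene, and Eno1b is a copy whose 1260 counted bases differ from those of Eno1 at 8 positions (99.4% identical, with a longest identical run of 680 bases). Only 121 of 1260 starts of Eno1 and 26 of Eno1b were unique at 28 bases. Eno1 had 293, 333 and 296 CPM in ESC total RNA and 434, 359 and 361 CPM in EpiLC total RNA, and 452, 457 and 491 CPM against 583, 593 and 642 CPM in RPFs. It did not overlap between cell types in either assay. It rose by 0.34 ± 0.07 in mRNA and 0.38 ± 0.07 in RPFs on the log2 scale (adjusted p of 0.000151 and 9.47e-05, limma).

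Eno1b was the only one of the 10 enzymes called for TE. Its RPF counts were 90, 87 and 155 in ESCs and 142, 54 and 191 in EpiLCs, which are 11.5, 18.5 and 14.2 CPM against 29.4, 20.5 and 35.8 CPM. Its total RNA level was 21.7, 23.1 and 21.1 CPM in ESCs and 17.2, 25.2 and 17.4 CPM in EpiLCs. RPFs did not overlap between cell types, with EpiLC replicate 2 just above the highest ESC library, and total RNA did overlap. The log2 change was 1.08 ± 0.20 for RPFs (adjusted p of 4.83e-05), -0.22 ± 0.15 for mRNA (adjusted p of 0.200) and 1.30 ± 0.25 for TE (adjusted p of 0.00743, limma).

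The RPF change of Eno1b lay close to the fold limit and dropped below it, to 0.89, without ESC RPF replicate 1 and, to 0.85, without EpiLC RPF replicate 3. Its TE change ran from 1.10 to 1.44 when single libraries were left out, with adjusted p from 0.00230 to 0.0458, and limma-trend gave an adjusted p of 0.0798. The ratio of Eno1b to Eno1 within a library overlapped between cell types in both assays, with a log2 difference of -0.48 in total RNA and 0.57 in RPFs (exact permutation p of 0.2 each, 2-sided, 0.229 adjusted over 8 comparisons). How far reads of the near-identical Eno1, or of other copies such as Gm4735, entered the Eno1b counts was not tested.

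Pkm, pyruvate kinase, makes the second ATP and pyruvate. Its M1 and M2 splice forms were not separated, since the counted sequence pools the exons of both. Total RNA was 1289, 1460.0 and 1396 CPM in ESCs and 1466, 1409 and 1499 CPM in EpiLCs, with overlap and a log2 difference of 0.08 (95% confidence interval -0.04 to 0.20). RPFs were 1091, 1170.4 and 1156 CPM in ESCs and 1539, 1690.3 and 1301 CPM in EpiLCs, without overlap. They rose by 0.39 ± 0.07 on the log2 scale (adjusted p of 2.81e-05, limma). TE differed by 0.30 (0.12 to 0.49) with an adjusted p of 0.0937, which was 0.0119 without EpiLC RPF replicate 3 (limma).

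Ldha, the lactate dehydrogenase subunit that dominates in glycolytic cells, had the smallest mRNA difference of the 10 enzymes. It had 592, 649 and 639.7 CPM in ESC total RNA and 618, 652 and 602 CPM in EpiLC total RNA. In RPFs it had 830.4, 870.0 and 979 CPM against 923, 1077 and 866 CPM. Both assays overlapped, with log2 differences of -0.01 (95% confidence interval -0.14 to 0.13) and 0.07 (-0.07 to 0.21). Ldhb, the subunit typical of lactate-using tissues, fell by 0.36 ± 0.08 in mRNA (adjusted p of 0.000436, limma) and differed by -0.10 ± 0.09 in RPFs. The ratio of Ldha to Ldhb per length was 5.19, 6.39 and 6.08 in ESC total RNA and 6.86, 7.92 and 7.91 in EpiLC total RNA, without overlap (exact permutation p of 0.1). In RPFs it overlapped, with 6.39, 6.71 and 8.46 against 7.91, 8.49 and 8.01 (p of 0.3).

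**Figure D4:**
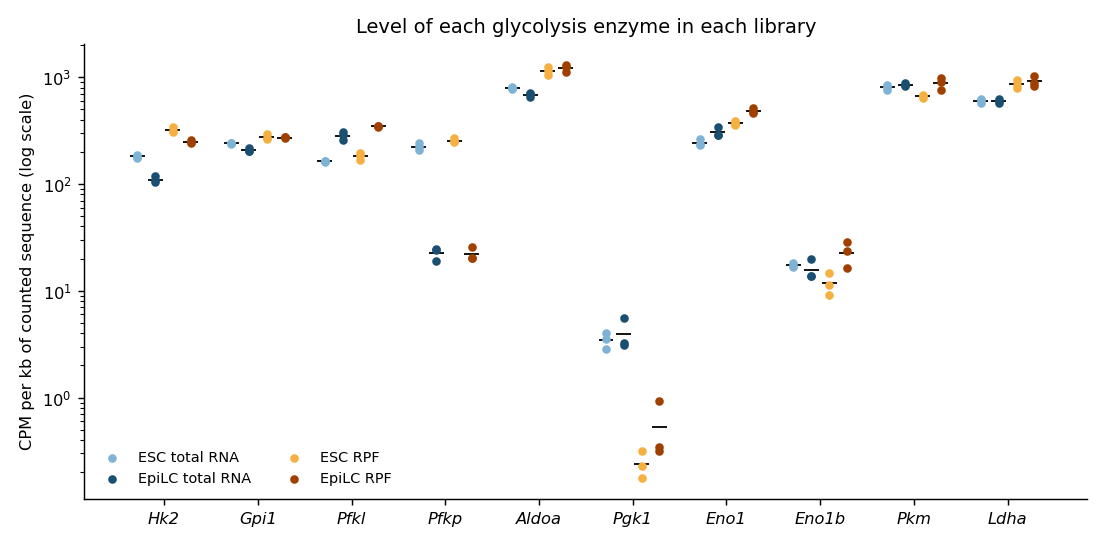
CPM per kb of counted sequence (log axis) of each enzyme in each of the 12 libraries, coloured by group, with black bars at the means. Aldoa, Pkm and Ldha are highest, Pfkp drops from 224 to 22.6 CPM per kb in total RNA, and Pgk1 lies lowest.

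Per length, the order of total RNA levels in ESCs was Pkm, Aldoa, Ldha, Eno1, Gpi1, Pfkp, Hk2, Pfkl, Eno1b and Pgk1, from 804 ± 50.2 CPM per kb (SD, n = 3) for Pkm to 3.48 ± 0.608 for Pgk1. The libraries of Pkm and Aldoa overlapped there, as did those of Eno1 and Gpi1 and of Gpi1 and Pfkp, whereas all other neighbours were apart. In EpiLCs Pkm (849 ± 26.6), Aldoa (686 ± 30.5) and Ldha (599 ± 24.4) again led. Pfkl moved from rank 8 to rank 5 (163 ± 3.15 to 283 ± 25.6 CPM per kb), overlapping with Eno1, and Pfkp moved from rank 6 to rank 8 (224 ± 17.4 to 22.6 ± 3.19), overlapping with Eno1b. Among all tested genes, Pfkp thus went from above 95.5% to above 50.3%, and Pfkl from above 93.0% to above 97.2%. Counted per unique start in place of all starts, a choice made after the data were seen, the order differed. Eno1 (1444 CPM per kb of unique starts in ESC and 1807 in EpiLC total RNA) then stood above Aldoa (954 and 824) and Ldha (839 and 835), and Eno1b (258 and 234) stood above Pfkp in both cell types. The ranks of Pfkp and Pfkl given here hold for levels over all starts.

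In RPFs the order was led by Aldoa, with 1141 ± 108 CPM per kb in ESCs and 1219 ± 99.9 in EpiLCs, followed by Ldha (858 ± 74.1 and 918 ± 105), Pkm (663 ± 24.8 and 879 ± 114) and Eno1 (370.2 ± 16.9 and 481 ± 25.3). Ldha and Pkm overlapped in EpiLCs and not in ESCs. Hk2 was 5th in ESCs and 7th in EpiLCs, and Pfkl went from 8th to 5th. Per unique start the RPF order differed too. Eno1 (3855 in ESCs and 5009 in EpiLCs) and Pkm (3794 and 5032) then stood above Ldha (2326 and 2487) and Aldoa (2198 and 2349.7 CPM per kb of unique starts). All 10 enzymes together took 0.551% ± 0.012 of all counts in ESC total RNA (SD, n = 3), 0.5002% ± 0.021 in EpiLC total RNA, 0.649% ± 0.033 in ESC RPFs and 0.691% ± 0.024 in EpiLC RPFs.

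TE levels also differed between both scales. As counted, log2 TE in ESCs was 0.60 ± 0.07 for Eno1 (SE), 0.52 ± 0.08 for Aldoa, 0.51 ± 0.08 for Ldha, 0.19 ± 0.05 for Gpi1, 0.19 ± 0.08 for Pfkp and 0.17 ± 0.07 for Pfkl. Pkm was at -0.28 ± 0.06, above only 37.4% of tested genes, and Pgk1 at -2.57 ± 0.16, above 0.494%. These levels were taken after 0.5 CPM was added to every value. The mean RPF level of Pgk1 in ESCs, 0.291 CPM, was below that amount. The addition therefore makes the log2 TE of Pgk1 less negative on both scales and narrows its SE. After division of each assay by its share of unique starts, log2 TE in ESCs was 1.42 for Eno1, 1.20 for Aldoa, 1.47 for Ldha, 0.75 for Gpi1 and 1.19 for Pkm. The value for Eno1b went from -0.58 as counted to 1.13, and that for Pgk1 from -2.57 to -1.66. The low TE of Pkm and Eno1b as counted thus did not remain on that scale. The value of Pgk1 stayed low, but its 25 unique 28-base starts all lie at the end of its coding sequence. The division treats every start alike, and whether footprints begin there as often as elsewhere was not tested. Of the TE differences between EpiLCs and ESCs, only those of Hk2 and Eno1b passed the test. These 2 enzymes were higher and 0 were lower, against 0.57% and 0.63% of all tested genes.

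**Figure D5:**
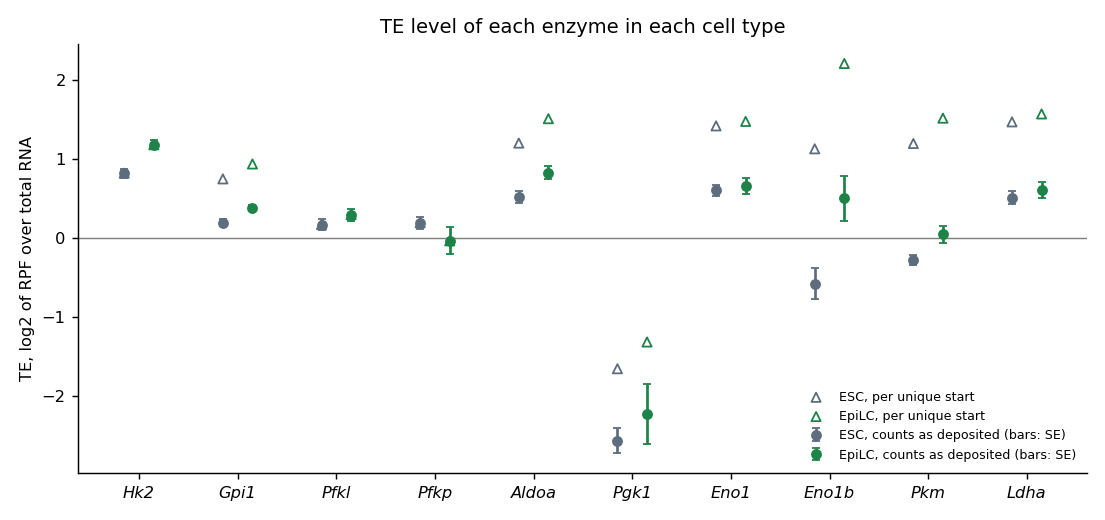
TE level (log2 of RPF over total RNA) of each enzyme in ESCs (grey) and EpiLCs (green). Filled circles with SE bars use the counts as deposited and open triangles divide each assay by its share of unique starts. All points were computed after adding 0.5 CPM to every value. The triangles lie above the circles for every gene with repeated sequence, for example at 1.19 against -0.28 for Pkm in ESCs.

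Among 20 further glycolysis genes, 11 passed the filter. For mRNA 0 were called higher and 3 lower (Hk1, Ldhd at -1.39 and Pgam2 at -1.18, all log2). Of all tested genes, 14.6% were called higher and 9.7% lower there. For RPFs 1 was called higher (Pfkm) and 3 lower (Ldhd at -2.37, Hk1 and Pgam2 at -1.08), against 15.4% and 10.6%. The median log2 change was -0.15 for mRNA, where all tested genes had 0.03, and -0.17 for RPFs, where they had 0.01. Ldhd, a mitochondrial D-lactate dehydrogenase, and Pgam2, the muscle phosphoglycerate mutase, were both low, at 5.83 ± 1.504 and 3.97 ± 0.41 CPM (SD, n = 3) in ESC total RNA.

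Of 12 genes that carry sugar and lactate across the membrane 8 were tested, 4 were called higher for mRNA and 0 lower, and 3 were called higher for RPFs and 0 lower. Over all tested genes 14.6% were called higher for mRNA and 15.4% for RPFs, and the median log2 changes were 0.68 and 0.42 over the 8 genes against 0.03 and 0.01 over all. Slc16a3, the lactate exporter MCT4, rose by 2.82 ± 0.11 in mRNA and 3.11 ± 0.12 in RPFs (log2 ± SE, adjusted p of 5.89e-17 and 6.12e-17, limma), from 38.6, 57.3 and 37.2 CPM to 303, 298 and 322 CPM in total RNA. Emb, a partner protein of monocarboxylate transporters, rose by 2.45 and 2.34. Slc2a1, the glucose transporter GLUT1, rose by 1.23 ± 0.09 and 1.57 ± 0.08, from 377, 342 and 432 CPM to 1053, 1155 and 1237 CPM in RPFs. Slc2a4 was called for mRNA only (1.11), with 0.64 in RPFs (adjusted p of 0.0953), and the difference between assays was -0.47 (adjusted p of 0.664, limma).

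Of 12 regulators of flux at phosphofructokinase and pyruvate dehydrogenase, 11 were tested. For mRNA 1 was called higher and 2 lower, against 14.6% and 9.7% of all tested genes. For RPFs 2 were called higher and 3 lower, against 15.4% and 10.6%. Pfkfb3, which makes the phosphofructokinase activator fructose 2,6-bisphosphate, rose by 1.74 ± 0.17 in mRNA and 1.60 ± 0.23 in RPFs. Tigar, which breaks that activator down, had log2 changes of -2.06 ± 0.12 and -1.95 ± 0.11. Pdp2, a phosphatase that activates pyruvate dehydrogenase, fell by 1.26 and 1.47. Pdk1, a kinase that inhibits that enzyme, rose by 0.78 in mRNA and 1.11 in RPFs, and Pdk4, another such kinase, was called lower for RPFs (-1.35). In mRNA its log2 difference was -0.62 (adjusted p of 0.0599), and the difference between assays was -0.73 (adjusted p of 0.541, limma). Without EpiLC RPF replicate 3 the RPF change of Pdk4 was -1.10 with an adjusted p of 0.0503 (limma). The adjusted p-values of the calls named here were at most 0.00508 (limma).

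Of 14 genes of pyruvate entry and gluconeogenesis 10 were tested, 0 were called higher, and 2 were called lower in each assay. The shares called higher and lower over all tested genes were 14.6% and 9.7% for mRNA and 15.4% and 10.6% for RPFs. Fbp2, a fructose bisphosphatase that opposes phosphofructokinase, had 86, 58 and 69 counts in ESC total RNA and 4, 0 and 0 in EpiLC total RNA. In RPFs it had 67, 41 and 136 counts in ESCs and 0 in all EpiLC libraries, which is at least 12.6-fold lower against a floor of 3 counts per library. Pck2, the mitochondrial phosphoenolpyruvate carboxykinase, fell by 1.25 in mRNA and 1.38 in RPFs. Of 8 pentose phosphate genes, all tested, 0 were called in either assay, against the same shares of all genes.

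Among 13 transcription factors and their regulators linked to glycolysis, 2 were called higher and 1 lower in each assay, against 14.6% and 9.7% of all tested genes for mRNA and 15.4% and 10.6% for RPFs. Myc rose from 17, 21 and 16 counts in ESC total RNA to 310, 151 and 105 in EpiLC total RNA (log2 3.63 ± 0.38 for mRNA and 3.82 ± 0.25 for RPFs). Egln3, a prolyl hydroxylase of the oxygen-sensing pathway, rose by 1.49 and 2.27, and Esrrb, a naive pluripotency factor, had log2 changes of -4.998 and -4.92. Of 15 hypoxia-responsive genes tested, the mRNA of 3 was called higher and that of 2 lower, while in RPFs 3 were called in each direction, against the same shares of all genes. Adm had at most 2 RPF counts in any ESC library and 28, 13 and 29 in EpiLCs, at least 12.6-fold higher against the same floor. P4ha2 rose by 1.60 and 2.09, whereas Ak4 fell by 2.72 and 2.76 and Kdm3a by 1.32 and 1.46, and Ndrg1 fell by 0.69 in mRNA and 1.21 in RPFs (adjusted p of 0.518 for the difference between assays, limma). Without total RNA replicate 3 of ESCs or of EpiLCs the mRNA change of Ndrg1 missed the test, with adjusted p up to 0.0664 (limma).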

How the data were processed

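The authors deposited raw counts per gene for 12 libraries of ESCs and EpiLCs (TruSeq ribosome profiling and total RNA, single-end reads of 50 bases). Per the methods, the file header and the submitters' processing notes, they trimmed adapters with cutadapt 1.14 (26 to 32 nt kept for RPFs, at least 32 nt for total RNA), kept uniquely mapped reads from STAR 2.5.3a on mm10 with Gencode M14, and counted read 5′ ends on the sense strand over coding sequence without its first 45 nt (featureCounts 1.5.3). Treatment of PCR duplicates is not given in the sources used here. Total counts were 2681439 to 14655015. The floors and the exact interval of Pgk1 cover counting error only, whereas the 95% confidence intervals of fitted changes rest on the spread between libraries.

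Groups and replicate numbers came from the sample titles. Genes with at least 3 CPM in at least 3 libraries were kept. Counts were TMM-scaled (edgeR 4.0.16) and fitted with voom and limma 3.58.1 (R 4.3.3) in a model of the 4 groups over all 12 libraries. The filter, limma and the use of an interaction follow the study's methods, which mention neither voom nor TMM; both were added here because the values are counts. TE change is the interaction of assay and cell type. P-values were adjusted over all tested genes. Log2 values of the fit hold a prior count of 0.5, whereas TE levels were taken after adding 0.5 CPM. Isozyme ratios used counts plus 0.5 per length and an exact permutation test, 2-sided. Sums over a step's isozymes and values per unique start were chosen after the data were seen. Unique starts were found against Gencode M21 transcripts on both strands, not the whole genome, and for Aldoa, Pkm and Pfkp the transcript used covers 1212 of 1584, 1551 of 1718 and 2310 of 2463 counted bases.

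The members and lists were chosen with earlier results of these data known. Named are all 10 enzymes and, from each other list, called genes (at most the 4 largest per direction) and genes of an isozyme ratio. Alternatives were edgeR's quasi-likelihood test, DESeq2 1.42.0, limma-trend, other scalings and filters, a GC correction, blocks by replicate number or culture, and leaving out each library. The fit was tested on simulated data. Same-numbered ESC and EpiLC libraries did not deviate together (r of -0.017 to 0.039 in 6 pairs), nor did same-numbered RPF and total RNA libraries throughout (-0.174 to 0.122 in 6 pairs). The study's text calls the total RNA matched, but whether a number marks a shared culture is not stated in the sources used here, so the fit has no block and blocks are alternatives.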

Additional observations from a re-analysis of the deposited data

Results flagged for a closer look

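In 2 enzymes the change from ESC to EpiLC differed between RPFs and total RNA by the test of the interaction itself. For Hk2 the difference was 0.34 on the log2 scale, with a fall of 0.71 in mRNA and of 0.37 in RPFs. For Eno1b it was 1.30, with -0.22 in mRNA and 1.08 in RPFs. Groups of 3 libraries are too small for a test of single outlying libraries, and no sample or column was left unused.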

How the results depend on the processing

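Of 747 alternative values for the 30 changes of the enzymes, 706 kept their direction and side of the adjusted p. Log2 changes near 0 reversed: Gpi1 in RPFs (0.00059 with total counts), Aldoa in RPFs (-0.034 with a GC correction and -0.032 with GC correction and replicate block), Pgk1 mRNA (-0.029 with the GC correction), Eno1 TE (-0.043 and -0.042) and Ldha in RPFs (-0.0037 and -0.00086, each with the GC correction without and with the block). Leaving out single libraries gave -0.024 to 0.14 for Aldoa RPF, -0.13 to 0.24 for Pgk1 mRNA, -0.020 to 0.14 for Eno1 TE, -0.052 to 0.022 for Ldha mRNA and -0.031 to 0.12 for Ldha RPF. The cause was not tested. The enzymes called higher in RPFs went from 1 to 0 with DESeq2, limma-trend, and GC correction with replicate block, and to 0 to 1 when a library was left out. TE calls went from 1 to 0 with limma-trend. Enzymes past the adjusted p for TE went from 2 to 1 with edgeR, no filter, and GC correction with or without block, to 0 with limma-trend, and to 1 to 3 without a library. Without the fold limit, called counts were those given above (2 and 4 for mRNA, 4 and 2 for RPFs, 2 for TE). Without Pgk1, Eno1 and Eno1b, added after seeing the data, enzymes past the adjusted p were 1 higher for mRNA, 2 higher for RPFs and 1 for TE, and none was called higher in RPFs or TE (0). Whether replicate numbers mark shared cultures is not stated, and with a replicate block TE calls over all genes went from 16 higher and 14 lower to 30 and 23, Pfkp and Eno1b stayed called, and Hk2 TE had an adjusted p of 0.0323. The 8 isozyme ratio changes kept their sign in all 64 alternatives, where paired sign flips cannot go below 0.25. The filter of at least 10 counts removed Pgk1. RPF counts were fewest for Pgk1, at 1 to 6 a library, and next fewest for Eno1b.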
